A study of Homo sapiens with 9 samples.

Results

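The 10 genes SOD1, SOD2, CAT, GPX1, GPX4, PRDX1, PRDX2, PRDX3, PRDX5 and PRDX6, which encode superoxide dismutases, catalase, glutathione peroxidases and peroxiredoxins, were taken by symbol from a table of 60606 genes. All 10 had a row and a mean over 1 TPM, the filter that left 22909 genes for testing. RNA was sequenced in 3 libraries each of U87, GSCs and Diff cells. U87, a human glioblastoma line long in use, was kept in medium with serum. GSCs are glioblastoma stem cells derived from U87, grown in serum-free medium with EGF and bFGF and irradiated repeatedly until radioresistant. Diff cells were grown from those irradiated GSCs in serum and picked from clonal communities. All 3 groups share the U87 genotype, and no library of unirradiated GSCs was analysed here, so that irradiation, culture medium and clonal selection cannot be told apart. TPM counts the transcripts of a gene per 1000000 with gene length divided out, and fold changes are differences of log2(TPM + 1). The labels number the replicates without saying whether they were separate cultures, so p-values measure the spread between these libraries only.

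Superoxide, a byproduct of respiration and of oxidases, is converted by superoxide dismutases to hydrogen peroxide, SOD1 acting mainly in the cytosol and SOD2 in the mitochondrial matrix. Catalase, in peroxisomes, splits hydrogen peroxide without a reductant, whereas glutathione peroxidases draw on glutathione and most peroxiredoxins on thioredoxin. Ionizing radiation forms such oxidants in cells, and enzymes that remove them are widely studied in radioresistance of glioblastoma.

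The sequences before the start sites of SOD2, GPX4, CAT and PRDX2 are shown, since SOD2, GPX4 and PRDX2 had the widest range of group means among the 10 and CAT was lower than U87 in both irradiated lines. RefSeq promoter windows of GRCh38.p14 matched 7 of the 10 genes, and each run below stops at the base before the first exon base of GENCODE 29 at that start. SOD2 had 4 windows, GPX4 3 and PRDX5 2. For these the 1 window with the most GENCODE starts within 100 bases was used, and the others were not searched. The SOD2 run lies inside the GENCODE span of the gene, which reaches to chr6:159745186. All are written 5′ to 3′ on the strand of the gene, with CCAAT boxes (CCAAT), E-boxes (CACGTG) and GC boxes (GGGCGG) on either strand in capitals. They lie at chr6:159693329-159693491 on the minus strand, chr19:1103744-1103925 on the plus strand, chr11:34438684-34438924 on the plus strand and chr19:12801860-12802050 on the minus strand.
SOD2: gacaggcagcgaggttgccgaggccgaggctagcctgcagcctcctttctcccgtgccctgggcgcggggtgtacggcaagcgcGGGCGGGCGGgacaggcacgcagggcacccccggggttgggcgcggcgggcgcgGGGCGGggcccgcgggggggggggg
GPX4: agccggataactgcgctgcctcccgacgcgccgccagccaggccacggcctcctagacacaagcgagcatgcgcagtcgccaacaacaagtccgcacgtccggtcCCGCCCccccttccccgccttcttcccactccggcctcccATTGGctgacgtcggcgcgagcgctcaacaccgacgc
CAT: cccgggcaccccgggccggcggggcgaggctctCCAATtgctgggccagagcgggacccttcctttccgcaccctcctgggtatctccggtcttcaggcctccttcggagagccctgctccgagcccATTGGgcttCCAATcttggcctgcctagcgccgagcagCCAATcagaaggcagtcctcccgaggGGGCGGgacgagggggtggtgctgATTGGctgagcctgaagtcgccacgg
PRDX2: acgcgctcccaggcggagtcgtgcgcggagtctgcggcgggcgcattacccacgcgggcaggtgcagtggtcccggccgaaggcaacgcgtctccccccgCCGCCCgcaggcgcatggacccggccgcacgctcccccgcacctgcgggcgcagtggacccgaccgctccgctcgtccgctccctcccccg

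In the 250 bases before the RefSeq start, CAT held 5 CCAAT boxes and GPX4 held 2, and the other 5 windows held none. At least 1 was held by 32.0% of 35116 RefSeq windows. These 250 bases can run past the first GENCODE exon base, where the printed runs stop. Before that base GPX4 held 1 CCAAT box and SOD2 3 GC boxes. In GPX1 only 3 bases precede it, and they hold none of the boxes. A GC box stood in all 7 windows, against 42.6% of all windows, with 6 in SOD2. An E-box was present in GPX1 and PRDX3 (6.34% of all windows). The core of the antioxidant response element that NRF2 binds (TGACNNNGC, 10.9% of all windows) and the core of a FOXO site (GTAAACA, 2.98%) were searched on both strands and matched in 0 of the 7, which says only that these letters are not in these windows. GC boxes can overlap one another, as in SOD2.

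Of the 10 genes, GPX1 was the most abundant, with a mean of 360 TPM over the 9 libraries (rank 187 of the 22909 tested genes), and CAT the least, with 18.6 TPM (rank 6304). Summed over the 10 genes, 1109 ± 51.0 TPM were measured in U87, 1288 ± 49.2 in GSCs and 1542 ± 81.2 in Diff cells (SD, n = 3), and no library of one cell line overlapped with another. GPX4 made up 13.2% of the sum in U87, 19.6% in GSCs and 23.9% in Diff cells, and PRDX2 4.81%, 4.43% and 1.78%. SOD2 had the widest range of group means, 1.67 on the log2 scale, and PRDX6 the narrowest, 0.14.

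**Figure D1:**
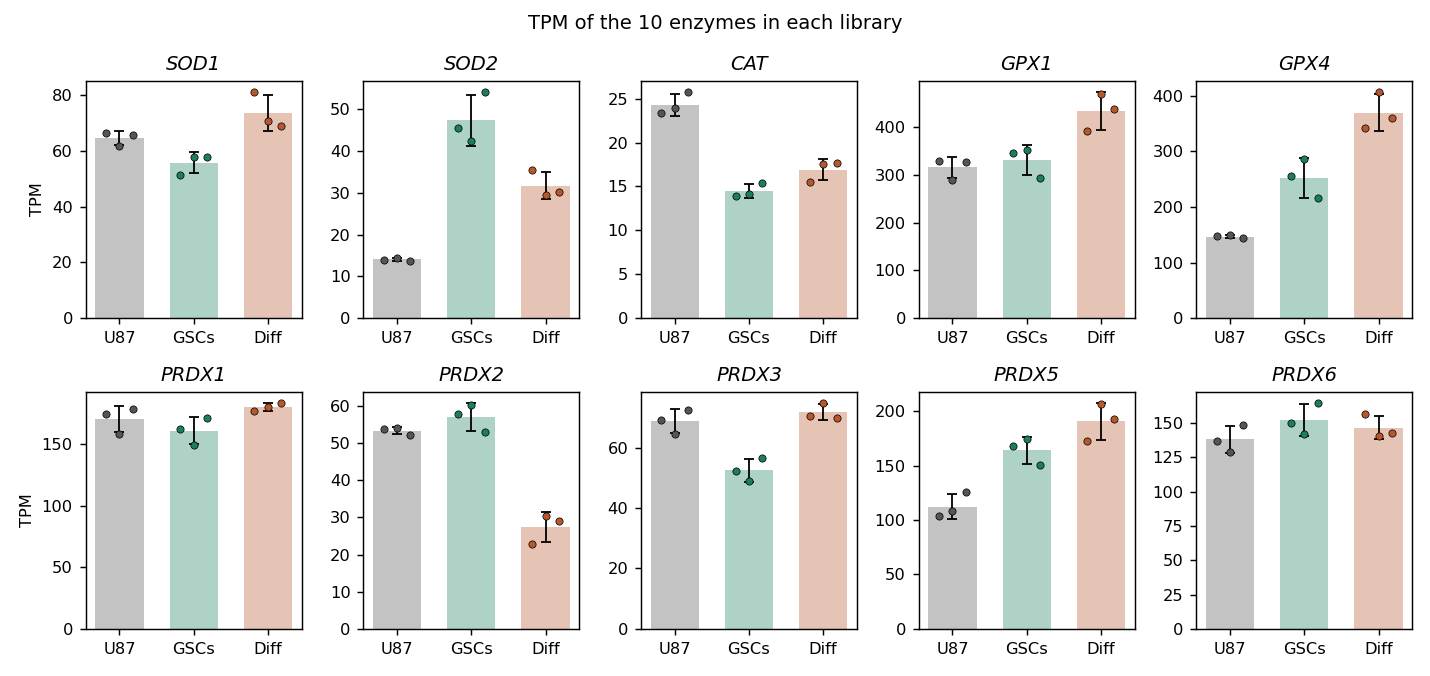
TPM of the 10 genes in U87, GSCs and Diff cells; points are libraries, bars the mean and error bars the SD (n = 3), each panel with its own axis from 0. SOD2 and GPX4 lie above U87 in every GSC and Diff library, CAT lies below, and PRDX2 is low in the Diff libraries.

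Compared with U87, 6 of the 10 genes passed the test in Diff cells (limma, Benjamini-Hochberg adjusted p under 0.05 over all tested genes): SOD2, GPX1, GPX4 and PRDX5 were higher and CAT and PRDX2 lower. Of all tested genes, 39.4% passed, 18.9% as higher and 20.5% as lower. In GSCs against U87, SOD2, GPX4 and PRDX5 were higher and SOD1, CAT and PRDX3 lower, against a background of 48.6% (25.3% higher and 23.3% lower). In Diff cells against GSCs, SOD1, GPX1, GPX4 and PRDX3 were higher and SOD2 and PRDX2 lower, against 34.8% (15.0% higher and 19.8% lower). Groups did not overlap for 7, 6 and 8 of the 10 genes in the 3 comparisons, against 55.2%, 55.8% and 46.7% of all tested genes. With calls at this rate across the transcriptome, the counts describe the 10 genes and do not set them apart. A fold change of over 1 on the log2 scale as well was reached by SOD2 and GPX4 in Diff cells against U87 (background 12.3%), by SOD2 in GSCs against U87 (17.1%) and by PRDX2 in Diff cells against GSCs (8.01%). The median fold change over the 10 genes was 0.13, 0.08 and 0.21 in the 3 comparisons, and over all tested genes -0.04, 0.02 and -0.06. In Diff cells against GSCs the balance of all calls depends on the scaling, with 3447 higher and 4535 lower as deposited and 4381 higher and 3756 lower after quantile normalization. Diff cells and GSCs were both compared with the same 3 U87 libraries, so these comparisons are not independent.

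**Figure D2:**
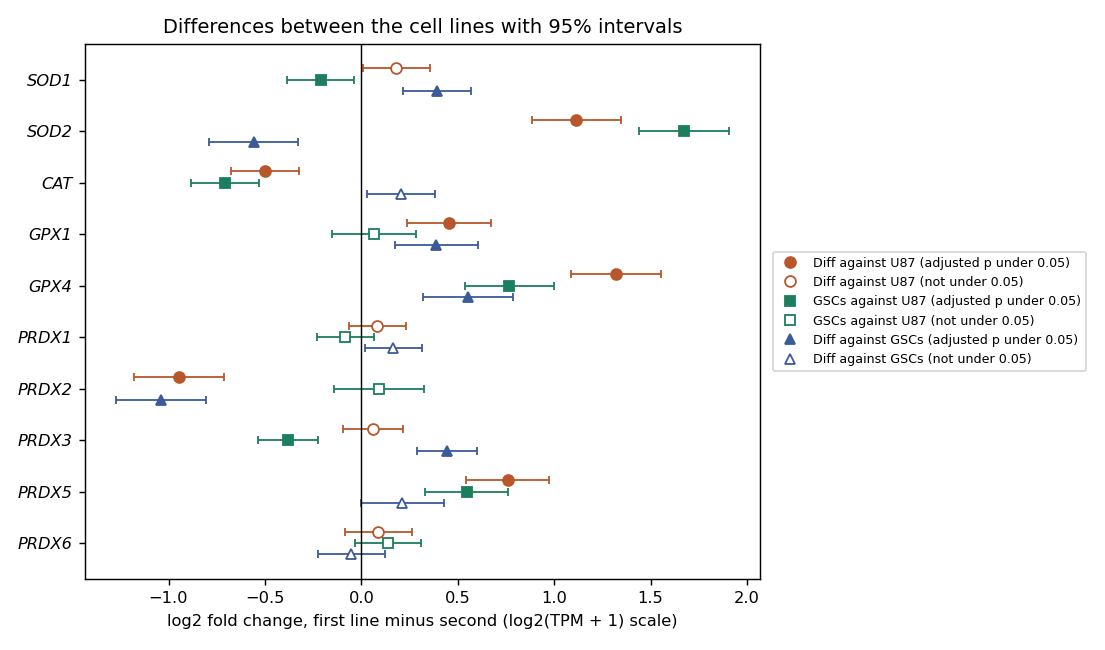
Fold change of each of the 10 genes on the log2(TPM + 1) scale with its 95% interval from limma, for Diff against U87, GSCs against U87 and Diff against GSCs; filled symbols have an adjusted p under 0.05. SOD2 (1.11 and 1.67) and GPX4 (1.32 and 0.77) lie farthest to the right against U87, and PRDX2 lies at -0.95 and -1.04 for Diff cells.

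SOD2, the manganese enzyme of mitochondria, measured 14.0, 14.4 and 13.8 TPM in U87. The GSC libraries held 45.6, 42.3 and 54.0 TPM, and the Diff libraries 35.5, 29.5 and 30.1. All GSC libraries were above all Diff libraries, which were above all U87 libraries. The mean was 3.36 times that of U87 in GSCs (fold change 1.67, SE 0.102, limma adjusted p = 2.43e-06) and 2.26 times in Diff cells (1.11, SE 0.102, adjusted p = 3.94e-05). From GSCs to Diff cells it fell by 0.56 (95% interval -0.79 to -0.33, limma adjusted p = 0.00308). In GENCODE 29, 2 overlapping genes on the same strand carry the symbol SOD2, sharing 5.12% of the exon bases of ENSG00000112096 (chr6:159669057-159745186), and WTAP on the opposite strand shares 1.81%. Its exons add up to 16493 bases against 893 to 3590 for the other 9 genes, so its level beside theirs depends on the length the authors divided by, which is not given in the sources used here.

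The log2(TPM + 1) profiles most like that of SOD2 over the 9 libraries, among 12386 protein-coding tested genes, were those of ZKSCAN1, KCNN3 and ATM. Each had a Pearson correlation of 0.998 as a description, since libraries of one cell line share their source. In U87, GSCs and Diff cells, ZKSCAN1 measured 35.1 ± 0.278, 69.1 ± 5.38 and 53.7 ± 3.85 TPM. KCNN3 measured 0.398 ± 0.0470, 3.17 ± 0.413 and 1.86 ± 0.180 TPM. ATM, the kinase that signals DNA double-strand breaks, measured 5.47 ± 0.276, 16.9 ± 2.11 and 11.5 ± 0.591 TPM. How many other genes came close was not counted, and a link to SOD2 was not tested.

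SOD1, the copper-zinc enzyme of the cytosol, showed the smaller differences of the pair. It measured 66.5, 61.9 and 65.6 TPM in U87, 51.5, 58.0 and 58.0 in GSCs and 81.0, 70.9 and 69.0 in Diff cells. All 3 groups were separate in rank, with GSCs lowest and Diff cells highest. Diff cells were higher than GSCs by 0.39 (SE 0.0764, limma adjusted p = 0.00439). In GSCs against U87 the fold change was -0.21 (limma adjusted p = 0.0484), a call lost in 11 of 20 alternatives, among them the omission of any U87 library or of GSC replicate 1 or 2 (adjusted p up to 0.156). In Diff cells against U87 it was 0.18 (95% interval 0.01 to 0.36, limma adjusted p = 0.0934).

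CAT, the gene of catalase (chr11:34438925-34472062), was lower in both irradiated lines. U87 held 23.3, 23.9 and 25.7 TPM, GSCs 14.0, 14.1 and 15.4 and Diff cells 15.5, 17.6 and 17.6. Every U87 library lay above all the others. The mean was 0.597 times that of U87 in GSCs (-0.71, SE 0.0768, limma adjusted p = 8.44e-05) and 0.695 times in Diff cells (-0.50, SE 0.0768, adjusted p = 0.000901). Diff cells and GSCs differed by 0.21 (95% interval 0.03 to 0.38, limma adjusted p = 0.0681), which passed in 6 of 20 alternatives.

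GPX4, the selenoprotein that reduces lipid hydroperoxides in membranes (chr19:1103926-1106791), measured 148, 149 and 144 TPM in U87. GSCs held 255, 285 and 215 TPM, and Diff cells 342, 406 and 359. The groups formed 3 steps without overlap, and the U87 libraries lay closest together. Against U87, GPX4 rose by 1.32 in Diff cells (SE 0.102, limma adjusted p = 1.46e-05) and by 0.77 in GSCs (SE 0.102, adjusted p = 0.000288), and it rose by 0.55 from GSCs to Diff cells (adjusted p = 0.00327). GPX1, the abundant cytosolic glutathione peroxidase and also a selenoprotein, measured 330, 290 and 328 TPM in U87, 346, 353 and 294 in GSCs and 392, 470 and 439 in Diff cells. The Diff libraries lay above all others, while U87 and GSCs overlapped. GPX1 was higher in Diff cells than in U87 by 0.45 (SE 0.0949, limma adjusted p = 0.00507) and than in GSCs by 0.39 (adjusted p = 0.0129, but 0.0503 without Diff replicate 2). GSCs and U87 differed by 0.07 (95% interval -0.15 to 0.28). GENCODE 29 types GPX1 as a polymorphic pseudogene, although it encodes a working enzyme.

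PRDX5, an atypical peroxiredoxin of mitochondria, peroxisomes and cytosol, passed as higher in both irradiated lines. It measured 103, 108 and 125 TPM in U87, 168, 174 and 150 in GSCs and 173, 206 and 193 in Diff cells. All U87 libraries were lowest, and GSCs and Diff cells overlapped. Relative to U87, Diff cells differed by 0.76 (SE 0.0951, limma adjusted p = 0.00027) and GSCs by 0.55 (adjusted p = 0.00141), with 0.21 between Diff cells and GSCs (95% interval -0.00 to 0.43, adjusted p = 0.119).

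PRDX2, a cytosolic enzyme abundant in neurons and red cells, was lower in Diff cells than in either of the other lines. U87 held 53.8, 54.0 and 52.2 TPM, GSCs 58.0, 60.2 and 52.9 and Diff cells 22.8, 30.4 and 29.0. The Diff libraries lay far below all others, and U87 and GSCs overlapped. The mean in Diff cells was 0.513 times that of U87 (-0.95, SE 0.102, limma adjusted p = 0.00011) and 0.48 times that of GSCs (-1.04, adjusted p = 0.000114), whereas GSCs and U87 differed by 0.09 (95% interval -0.14 to 0.33). An antisense gene on the opposite strand shares 14.1% of the exon bases of PRDX2 and is listed at 0 in every library.

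PRDX3, the thioredoxin-dependent peroxidase of the mitochondrial matrix, was lower in GSCs than in both other lines. It measured 69.0, 64.6 and 72.5 TPM in U87, 52.2, 48.9 and 56.5 in GSCs and 70.3, 74.7 and 69.9 in Diff cells. The GSC libraries were all lowest, and U87 and Diff cells overlapped. The fold change was -0.38 in GSCs against U87 (SE 0.0682, limma adjusted p = 0.00163) and 0.44 in Diff cells against GSCs (adjusted p = 0.0013), and 0.06 between Diff cells and U87 (95% interval -0.09 to 0.22). PRDX1, the main cytosolic peroxiredoxin, and PRDX6, which uses glutathione and is also a phospholipase, did not pass in any of the 3 comparisons. PRDX1 measured 174, 158 and 179 TPM in U87, 162, 150 and 171 in GSCs and 177, 181 and 183 in Diff cells. PRDX6 measured 137, 129 and 148 TPM in U87, 150, 142 and 165 in GSCs and 157, 141 and 143 in Diff cells. The U87 and GSC values of both genes overlapped, and so did those of U87 and Diff cells. For PRDX1 the widest fold change was 0.17, between Diff cells and GSCs (95% interval 0.02 to 0.31, limma adjusted p = 0.0803), which passed in 5 of 20 alternatives. For PRDX6 it was 0.14, between GSCs and U87 (95% interval -0.03 to 0.31). MMACHC on the opposite strand shares 24.9% of the exon bases of PRDX1 (17.4, 15.0 and 19.8 TPM in U87, GSCs and Diff cells), and whether reads were counted by strand is not given in the sources used here.

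Pseudogenes of PRDX2 and PRDX3 also had signal, and reads shared with them make these values less certain. Summed over 4 pseudogenes each, PRDX3 pseudogenes held 28.5 to 33.9 TPM in U87, 17.7 to 25.6 in GSCs and 17.9 to 27.2 in Diff cells, and PRDX2 pseudogenes 10.6 to 11.8, 8.22 to 15.8 and 5.64 to 9.08. The pseudogene of SOD2 reached at most 3.10 TPM, in a GSC library, and those of SOD1, GPX1 and PRDX1 at most 0.313, 3.30 and 2.78 TPM.

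Pairs of genes were also compared within each library, as the difference of their log2(TPM + 1) values. SOD2 against SOD1 was -2.12 ± 0.0815 in U87, -0.24 ± 0.182 in GSCs and -1.19 ± 0.0384 in Diff cells (SD, n = 3). SOD2 against CAT, whose enzymes act in mitochondria and in peroxisomes, was -0.75 ± 0.0929, 1.63 ± 0.113 and 0.87 ± 0.240. SOD2 against PRDX3, both mitochondrial, was -2.21 ± 0.113, -0.15 ± 0.0783 and -1.15 ± 0.176. GPX1 against GPX4 was 1.10 ± 0.122, 0.40 ± 0.0798 and 0.23 ± 0.0505. Without the offset of 1, where the ratio of TPM no longer depends on how a library was scaled, SOD2 to SOD1 was -2.20, -0.24 and -1.22 on the log2 scale and SOD2 to CAT -0.79, 1.70 and 0.91. In each of the 4 pairs, with and without the offset, no library of one cell line overlapped with those of another. Every pair holds SOD2 or GPX4, whose own levels were already separate between all cell lines. The separation of the pairs therefore follows in part from their choice, and its share over all gene pairs was not computed. The exact permutation test, two-sided, gave p = 0.1 in all 12 tests of the values with the offset, the smallest that 3 against 3 libraries can give (adjusted p = 0.1).

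**Figure D3:**
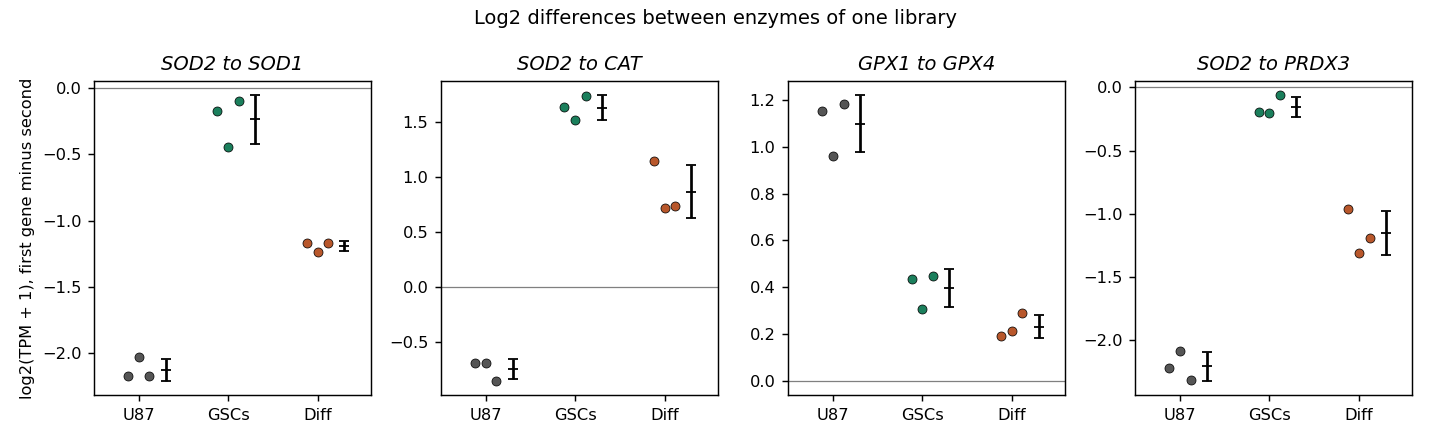
Differences of log2(TPM + 1) between the genes of a pair within each library for U87, GSCs and Diff cells; points are libraries, bars beside them mean and SD (n = 3), and each panel has its own axis. The 3 groups are separate in all 4 panels; SOD2 to SOD1 and SOD2 to PRDX3 are lowest in U87 and highest in GSCs.

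Neighbouring genes can shift together, so each gene was set beside its 24 nearest tested genes, 12 on each side. SOD2 and GPX4 exceeded all 24 neighbours in Diff cells against U87, where the neighbours had a median fold change of 0.01 in both cases. In GSCs against U87, SOD2 exceeded 23 of 24 and GPX4 22 of 24, and the median was -0.21 in both cases. PRDX2 was below all 24 in Diff cells against U87 (median 0.07). PRDX5 exceeded 21 and 18 of its 24 neighbours. For CAT in Diff cells against U87, the neighbours had a median of -0.40 and 18 of 24 were below 0, so that CAT at -0.50 lay among them; in GSCs against U87 their median was -0.12 with CAT at -0.71. What part a shift of the whole stretch had in the value of CAT was not tested.

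Other members of these families differed as well. SOD3, the secreted superoxide dismutase, measured 58.5 ± 3.98 TPM in U87, 420 ± 50.9 in GSCs and 223 ± 14.6 in Diff cells (SD, n = 3), fold changes of 2.82 in GSCs and 1.91 in Diff cells against U87 (limma adjusted p = 1.01e-07 and 1.29e-06), the same order of cell lines as for SOD2. GPX3, a secreted glutathione peroxidase, fell from 8.23 ± 0.555 TPM to 1.19 ± 0.425 in GSCs and 1.88 ± 0.407 in Diff cells (-2.09 and -1.69). GPX8 and PRDX4, both of the endoplasmic reticulum, were lower in both irradiated lines than in U87, by -0.51 and -0.45 for GPX8 and -0.26 and -0.22 for PRDX4; PRDX4 in Diff cells lost its call in 7 of 20 alternatives. Of 6 tested family members outside the 10, 1 was higher and 3 lower in each of these comparisons, with medians of -0.17 in GSCs and -0.21 in Diff cells against 0.02 and -0.04 over all genes. Over all tested genes, 25.3% were higher and 23.3% lower in GSCs, and 18.9% and 20.5% in Diff cells. GPX5 and GPX6 are listed at 0 in all libraries.

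The glutathione list held genes of synthesis, import, recycling and breakdown as well as glutaredoxins. Against U87, Diff cells had 1 of 12 tested genes higher and 7 lower (median -0.37 against -0.04 over all tested genes). GSCs had 3 higher, 6 lower and 3 not called (median -0.24 against 0.02). Calls across the whole transcriptome came to 18.9% up and 20.5% down for Diff cells. For GSCs the same shares were 25.3% and 23.3%. SLC7A11, the cystine importer, measured 48.1 ± 5.14 TPM in U87, 1.39 ± 0.352 in GSCs and 6.02 ± 1.16 in Diff cells (-4.37 and -2.81, limma adjusted p = 1.36e-07 and 2.41e-06). GSR, which recycles oxidized glutathione, was lower in both (-1.09 and -0.45). CHAC1, which degrades glutathione, fell by 3.28 in GSCs and 2.76 in Diff cells. GCLM, the modifier subunit of glutamate-cysteine ligase, measured 18.2 ± 1.08, 74.2 ± 12.6 and 11.2 ± 0.797 TPM, higher in GSCs by 1.96 and lower in Diff cells by -0.66, whereas the catalytic subunit gene GCLC was higher in both (0.62 and 0.66).

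Thioredoxin genes, which serve the peroxiredoxins, included TXN and TXN2, the thioredoxins themselves, which did not pass in any comparison. TXNRD1, the cytosolic thioredoxin reductase and a selenoprotein, was lower in GSCs (32.4 ± 4.02 TPM) than in U87 (62.9 ± 7.61) and Diff cells (55.7 ± 2.95), with -0.93 against U87 (limma adjusted p = 0.000131). TXNIP, which binds thioredoxin, measured 493 ± 20.7 TPM in U87, 1142 ± 74.7 in GSCs and 485 ± 19.5 in Diff cells. SESN2 and SESN3, stress-induced sestrins, were lower in GSCs (-2.91 and -2.07) and in Diff cells (-1.73 and -2.27). SESN1, by contrast, was higher in Diff cells than in U87 (0.43) and did not pass in GSCs (0.03). TXNRD3, another thioredoxin reductase gene, was higher than in U87 in both Diff cells (0.43) and GSCs (0.90). Against U87, 2 of 9 tested genes of this list were higher and 2 lower in Diff cells, and 2 higher and 3 lower in GSCs. The share of all tested genes was 18.9% higher and 20.5% lower in Diff cells, and 25.3% and 23.3% in GSCs.

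**Figure D4:**
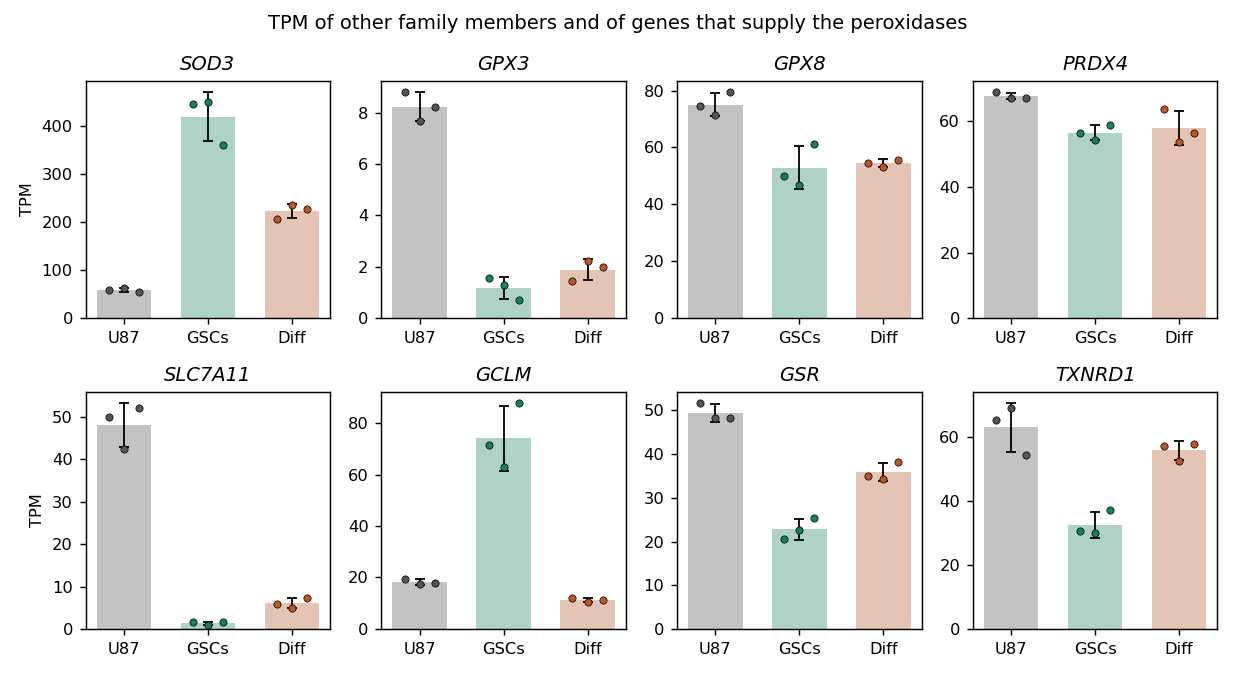
TPM of other family members (SOD3, GPX3, GPX8, PRDX4) and of genes that serve the peroxidases (SLC7A11, GCLM, GSR, TXNRD1) in U87, GSCs and Diff cells; points are libraries, bars the mean, error bars the SD (n = 3). SOD3 and GCLM stand highest in GSCs, while SLC7A11 is at 48.1 TPM in U87 against 1.39 in GSCs and 6.02 in Diff cells.

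GPX1 and GPX4 need selenocysteine. SEPHS1, a selenophosphate synthetase homolog, was lower in both lines (-1.60 in GSCs and -1.15 in Diff cells). Its limma adjusted p was 3.97e-07 in GSCs and 3.8e-06 in Diff cells. SEPHS2, of the same list, was lower in GSCs (-0.43) and did not pass in Diff cells (-0.12). LRP8, a receptor for selenoprotein P, was higher (1.04 in GSCs and 0.49 in Diff cells). What these levels mean for GPX1 and GPX4 was not tested. Of 9 tested genes of selenocysteine insertion, 1 was higher and 3 lower in Diff cells and 3 and 3 in GSCs. Of 12 tested genes in a further list of selenoproteins, which leaves out glutathione peroxidases, thioredoxin reductases and SEPHS2, 2 were higher and 3 lower in Diff cells, and 3 and 2 in GSCs. DIO1, a deiodinase, measured 5.35 ± 1.31 TPM in U87, 2.14 ± 0.0839 in GSCs and 0.813 ± 0.274 in Diff cells, SELENOW was lower in Diff cells by -0.82, and SELENON, of the endoplasmic reticulum, was higher in Diff cells by 0.58. Catalase enters peroxisomes with the receptor PEX5, which measured 13.0 ± 0.648, 23.3 ± 1.49 and 14.4 ± 0.281 TPM and was higher in GSCs by 0.80 (adjusted p = 2.41e-05 from limma). Of 11 tested peroxisome genes, 1 was higher and 1 lower in Diff cells, and 2 and 2 in GSCs. For all lists of this paragraph, the background against U87 was 18.9% higher and 20.5% lower in Diff cells, and 25.3% and 23.3% in GSCs.

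Among 8 tested sources of oxidants, 3 were higher and 3 lower in Diff cells and 3 and 2 in GSCs. For this list and the NADPH and ferroptosis lists, the background was 18.9% higher and 20.5% lower in Diff cells. In GSCs it was 25.3% and 23.3%. ERO1A, which forms hydrogen peroxide during disulfide formation, measured 102 ± 9.39 TPM in U87, 88.4 ± 9.97 in GSCs and 36.3 ± 2.47 in Diff cells (-1.47 against U87, limma adjusted p = 7.45e-06). CYBA, a subunit of NADPH oxidases, fell by 1.20 in GSCs and 0.55 in Diff cells. NOXA1, an activator of NOX1, rose by 2.19 in GSCs (0.213 ± 0.148 to 4.59 ± 1.24 TPM). NOX1 itself had means of 0.121, 0.0798 and 0.0179 TPM in U87, GSCs and Diff cells and was not tested. NADPH genes gave 1 higher and 2 lower of 7 in Diff cells and 1 and 4 in GSCs, among them IDH2, which supplies NADPH in mitochondria, at -0.73 in GSCs and -0.88 in Diff cells. Of 8 tested genes of ferroptosis, the lipid-peroxide death that GPX4 restrains, 3 were higher and 2 lower in Diff cells and 3 and 1 in GSCs. ACSL4, which activates the fatty acids that peroxidize, was higher in Diff cells (0.97) and GSCs (0.60). GCH1, which starts the synthesis of tetrahydrobiopterin, was higher in GSCs (0.87), and PTGS2, the inducible cyclooxygenase, fell by 1.57 in Diff cells. TFRC, which the paper names with PTGS2 as a ferroptosis marker, was higher in Diff cells (0.55) and GSCs (0.34).

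Of 13 regulators of antioxidant enzymes, Diff cells had 5 higher and 4 lower than U87, and GSCs 5 and 2. The background over all tested genes was 18.9% higher and 20.5% lower in Diff cells, and 25.3% and 23.3% in GSCs. PPARGC1A, a coactivator of mitochondrial genes, measured 2.03 ± 0.307 TPM in U87, 6.88 ± 1.13 in GSCs and 24.8 ± 1.90 in Diff cells (3.09 in Diff cells, limma adjusted p = 5.15e-07). FOXO1, of a family known to act on SOD2 and CAT, measured 2.49 ± 0.300, 8.68 ± 2.62 and 4.72 ± 0.393 TPM. NFE2L2, the gene of NRF2, did not pass in any comparison (31.3 ± 0.226, 29.5 ± 3.46 and 33.1 ± 1.62 TPM). KEAP1, which holds NRF2 in check, was higher in Diff cells (0.39) and lower in GSCs (-0.31), and BACH1, a repressor at NRF2 sites, was lower in Diff cells (-0.43). NFE2L1, a relative of NRF2, was lower in both (-0.56 in Diff cells and -0.34 in GSCs), and TFAM, which maintains mitochondrial DNA, was higher in both (0.44 and 0.53). Of the NF-κB genes, NFKB2 was higher in GSCs by 0.76, and NFKB1 was higher in Diff cells by 0.48 and in GSCs by 0.24. In Diff cells, RELA was at -0.30 (limma adjusted p = 0.0269, lost in 8 of 20 alternatives) and RELB at -0.36 (adjusted p = 0.0461, lost in 11). FOXO3 and SP1 did not pass in any comparison.

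The stem cell label of the GSCs was checked against its markers, since these cells hold the highest SOD2. PROM1 and SOX2 stayed under 1 TPM in all 9 libraries and were not tested, with the highest means in GSCs (PROM1 0.171 ± 0.0599 TPM in U87, 0.507 ± 0.113 in GSCs and 0.0236 ± 0.0114 in Diff cells, SOX2 0.0383 ± 0.0663, 0.879 ± 0.101 and 0.153 ± 0.0387). FABP7, of radial glia, was higher in GSCs (4.91 ± 0.796 TPM) than in U87 (0.731 ± 0.228) and Diff cells (2.86 ± 0.378), and NES was highest in U87 (33.0 ± 2.22) and lowest in Diff cells (13.5 ± 1.02). The summed level of the 4 markers, 32.4 to 36.4 TPM in U87, 27.5 to 29.8 in GSCs and 15.6 to 17.3 in Diff cells, rests mainly on NES, while PROM1, SOX2 and FABP7 had their highest means in GSCs. Of 4 tested neuronal and glial markers, 1 was higher and 1, GFAP, lower in Diff cells against U87, beside 18.9% and 20.5% of all tested genes. MAP2 was higher in Diff cells (21.7 ± 1.02 TPM against 7.95 ± 1.14 in U87), TUBB3 did not pass in any comparison, OLIG2 passed only as lower in Diff cells against GSCs (-0.61), DCX and RBFOX3 stayed at or under 0.164 TPM, and S100B reached 1.06 TPM. The summed level of the immune, endothelial and mesenchymal list was 454 to 545 TPM in U87, 31.3 to 38.8 in GSCs and 154 to 164 in Diff cells, of which COL1A1, also made by glioblastoma lines, held 497 ± 44.3, 27.7 ± 3.87 and 157 ± 5.31 TPM. PTPRC, CD14 and CDH5 were under 1 TPM in every library, and PECAM1 reached 6.92 TPM in GSCs. In bulk RNA, fewer cells of a type and less RNA per cell cannot be told apart. Mitochondrial transcripts held 25.9% to 28.8% of the TPM in U87, 27.9% to 30.8% in GSCs and 30.7% to 31.8% in Diff cells, so that U87 and Diff cells did not overlap. The noncoding RNA RN7SL1 held 8.77% to 9.79% in U87, above all libraries of GSCs (5.73% to 7.84%) and Diff cells (6.67% to 8.54%). Leaving both out kept every call among the 10 genes, added SOD1 in Diff cells against U87 and CAT and PRDX1 in Diff cells against GSCs as higher, and turned the sign of PRDX6 in Diff cells against GSCs.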

How the data were processed

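RNA-seq covered 3 libraries each of U87, GSCs and Diff cells, grouped by the sample titles. The authors deposited 1 table of log2(TPM + 1) values for 60606 genes; reads were trimmed, aligned and counted by them before deposit, and the submitters' processing notes name FastQC 0.11.9, Trimmomatic 0.39, HISAT2 2.2.1, featureCounts 2.0.5, R 4.2.0 and GRCh38. The annotation, the strand setting and the treatment of reads with several matches are not given in the sources used here. The paper's methods describe oligo(dT) enrichment, the labels removal of ribosomal RNA and directional libraries. TPM keeps no depth, so depth is unknown, no counting interval was given, and precision comes from the spread of 3 libraries.

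Genes with a mean over 1 TPM were fitted with limma 3.58.1 in R 4.3.3 (eBayes with a trend, all 9 libraries in 1 model of 3 groups), with Benjamini-Hochberg adjustment over 22909 genes in each comparison. The fit was first tested on simulated data. Differences between genes within a library were compared with exact permutation tests in scipy 1.17.1, run in Python 3.11.15 with numpy 2.4.6, and matplotlib 3.10.9 drew the figures from tables of pandas 2.3.3. GENCODE 29 gave coordinates, overlaps and neighbours (56963 genes matched), and RefSeq the promoter sequences. The 10 genes and the gene lists were chosen with earlier results of these data known. The rule for naming other genes allowed up to 4 called genes with the largest fold change per list and comparison, genes at 0 in all libraries, all markers and regulators, and the 3 protein-coding genes most like SOD2. Not all genes so allowed are printed, and those printed were selected after their values were seen. So were TXN, TXN2, GCLC, SEPHS2, NOX1, the overlapping genes and the pseudogenes, which fall outside the rule. Alternatives changed the offset, filter, scaling, samples, variance prior, replicate block and libraries.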

Additional observations from a re-analysis of the deposited data

How the results depend on the processing

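Of 30 fold changes of the 10 genes (10 genes in 3 comparisons), 24 kept their direction and their side of the threshold in all 20 alternatives; of 600 values, 569 did so, 12 lost the call, 15 gained it and 4 changed sign. The 4 were all of PRDX6 in Diff cells against GSCs, -0.05 as reported, which was 0.0044 with median-ratio scaling, 0.012 without mitochondrial genes and RN7SL1, 0.0063 without GSC replicate 3 and 0.0082 after adjustment for GC content and length; leaving out single libraries moved it between -0.099 and 0.0063. SOD1 in GSCs against U87 lost its call with no filter, with only both groups compared, with no trend, with the replicate block and without U87 replicate 1, 2 or 3, GSC replicate 1 or 2, or Diff replicate 2 or 3 (-0.24 to -0.15, limma adjusted p 0.0532 to 0.156). SOD1 in Diff cells against U87 gained a call under the 3 scalings and the GC and length adjustment (0.20 to 0.23), as did CAT and PRDX1 in Diff cells against GSCs, which also gained it without GSC replicate 3, and CAT without Diff replicate 1. The cause was not tested. Adding a threshold of 1 on the log2 fold change, chosen after seeing the data as was the GC and length adjustment, left 2 genes higher and 0 lower for Diff cells over U87, 1 and 0 in GSCs against U87, and 0 and 1 in Diff cells against GSCs; by its construction it can only remove calls.

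Replicate numbers did not pair the libraries (correlations of same-numbered deviations -0.04 to 0.05). With the replicate block, the 10 genes gave 4 higher and 2 lower for Diff cells over U87, 3 and 2 in GSCs against U87, where SOD1 was lost (-0.21, limma adjusted p = 0.0887), and 4 and 2 in Diff cells against GSCs. Depth is unknown, so counting error could not be separated from the spread of 3 libraries.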
